A study of Homo sapiens with 21 samples.

Results

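A set of 10 genes of the Notch pathway was followed through 21 messenger RNA libraries of HEK 293FT cells. They were the HES and HEY repressor genes HES1, HES4, HES5, HES6 and HEY1, the receptors NOTCH1, NOTCH2 and NOTCH3, and the ligands DLL1 and JAG1. They were taken by symbol from a table of 27142 genes, and all 10 were found and passed a filter of at least 1 FPKM (fragments per kilobase of exon, scaled to library depth) in at least 3 libraries, as did 13679 genes in all. The members were chosen by symbol, but HES4 and HES5 were selected on their FPKM in these 21 libraries, which differed between groups, so their levels are described here without a test. The other 8 were tested.

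HEK 293FT is a human embryonic kidney line that carries the SV40 large T antigen. All cells received plasmids by lipid transfection, and RNA was taken 48 h later. The 7 groups had 3 replicates each. A short hairpin RNA (shRNA), which is processed into a small RNA that guides Argonaute, targeted ANXA4, targeted B4GALNT1 or was non-targeting (NT). RfxCasR, an RNA-guided nuclease that cuts RNA, was expressed with a B4GALNT1 guide RNA (gRNA) or an NT gRNA, and with an ANXA4 array or an NT array of guides. No untransfected cells were analysed here. The series' title asks how specific RfxCasR and the matching shRNAs are.

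Notch receptors are membrane proteins that are cleaved when a ligand of the Delta or Jagged family on a neighbouring cell binds them. ADAM proteases and then gamma-secretase make the cuts, and the freed intracellular domain joins the DNA-binding protein RBPJ and a Mastermind protein to turn on genes. HES and HEY genes are the best known of these. They encode basic helix-loop-helix repressors that hold back differentiation, in neural progenitors above all, and HES1 also represses its own promoter.

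The promoters of HES1, HES4 and HES5 are shown because RBPJ, the DNA-binding subunit of the pathway, is known to act through such elements, and because HES4 and HES5 are the genes whose levels varied most. Each line gives the 250 bases before the RefSeq start on GRCh38.p14, 5′ to 3′ on the gene's strand, with the RBPJ core TGGGAA or its reverse complement TTCCCA in capitals. These starts are RefSeq's and not the hg19 transcripts that were counted.
HES1 (chr3:194135898-194136147, plus strand): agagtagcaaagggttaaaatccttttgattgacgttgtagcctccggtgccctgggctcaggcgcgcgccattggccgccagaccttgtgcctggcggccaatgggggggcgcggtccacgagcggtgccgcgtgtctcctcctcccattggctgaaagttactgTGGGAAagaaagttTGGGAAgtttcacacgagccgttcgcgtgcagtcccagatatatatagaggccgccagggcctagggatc
HES4 (chr1:1000098-1000347, minus strand): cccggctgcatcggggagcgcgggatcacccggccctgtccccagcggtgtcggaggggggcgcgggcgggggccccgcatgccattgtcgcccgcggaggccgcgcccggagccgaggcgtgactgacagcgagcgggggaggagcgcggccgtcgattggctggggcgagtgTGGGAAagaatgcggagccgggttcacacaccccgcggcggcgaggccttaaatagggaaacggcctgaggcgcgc
HES5 (chr1:2530264-2530513, minus strand): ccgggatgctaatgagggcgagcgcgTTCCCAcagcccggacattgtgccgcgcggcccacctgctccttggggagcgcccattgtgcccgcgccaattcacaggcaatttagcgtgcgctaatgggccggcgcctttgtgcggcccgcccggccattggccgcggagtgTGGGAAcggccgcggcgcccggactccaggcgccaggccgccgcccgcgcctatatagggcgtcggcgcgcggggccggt

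All 3 promoters held the longer form GTGGGAA, which contains the core, close to the same place. It lay at positions -85 to -79 from the start in HES1, -77 to -71 in HES4 and -81 to -75 in HES5. HES1 had a further core match at -70 to -65, and HES5 had a further match on the opposite strand at -224 to -218. Of 35116 RefSeq promoters of this length, 20.8% held TGGGAA and 5.43% held GTGGGAA on either strand. Neither form was found in the same window of HES6, NOTCH1, NOTCH2, NOTCH3 or JAG1. The promoters of HEY1 and DLL1 were not examined. CACNAG, the N box that HES proteins are known to bind, was found 3 times in HES1 and 1 time in NOTCH3, and 32.0% of all promoters held it. These matches describe letters, not binding.

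The FPKM steps gave depths of 34.7 M to 39.5 M reads for the 6 array libraries and of 21.4 M to 30.7 M reads for the other 15. The targeted genes were checked first. ANXA4 was at 2.40 ± 0.22 FPKM with its shRNA and 5.90 ± 0.378 FPKM with the NT shRNA (SD, n = 3 each; -1.02 log2, limma adjusted p = 1.72e-09). B4GALNT1 fell with its shRNA (limma log2 change -0.43, adjusted p = 0.000131) and its gRNA (-1.09 log2, limma adjusted p = 1.67e-07). Values and labels did not match in the arrays, where the libraries labelled ANXA4 array had 7.03 ± 0.24 FPKM of ANXA4 and those labelled NT array had 3.03 ± 0.427 FPKM (SD, n = 3 each; 1.00 log2, limma adjusted p = 5.37e-07), whereas the authors' deposited table gives -1.21 log2. Among markers of the line, NEFL, NEFM, VIM, KRT8 and KRT18 had at least 16.9 FPKM in every library, EYA1 had 1.29 to 2.82 FPKM, LHX1 had 0.94 to 2.27 FPKM, and PAX2 stayed at or under 1.32 FPKM. The blood markers PTPRC and CD3E did not exceed 0.077 FPKM, and the endothelial markers PECAM1 and CDH5 did not exceed 0.129 FPKM. COL1A1, which fibroblasts make in quantity, had 4.17 to 11.0 FPKM, LUM had 0.292 to 1.86 FPKM, and PDGFRB did not exceed 0.213 FPKM. Of the neural progenitor markers, SOX2, PAX6 and NES had 2.73 to 12.7 FPKM, and SOX1 was at 0 in 15 libraries.

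HES4 was the most abundant of the HES and HEY genes in every group. It had 106, 115 and 120 FPKM with the ANXA4 shRNA, 96.3, 103 and 111 FPKM with the B4GALNT1 shRNA, and 118, 122 and 119 FPKM with the NT shRNA. With RfxCasR it had 106, 106 and 111 FPKM with the B4GALNT1 gRNA and 107, 118 and 114 FPKM with the NT gRNA. The libraries labelled ANXA4 array had 59.9, 47.7 and 41.3 FPKM, and those labelled NT array had 70.75, 77.9 and 65.6 FPKM. HES4 was therefore low in all 6 array libraries. The 5 other groups overlapped with their neighbours in the order of means, from 103 ± 7.37 FPKM with the B4GALNT1 shRNA to 119 ± 2.00 FPKM with the NT shRNA (SD, n = 3 each), although those at the ends did not overlap each other.

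HES5, a Notch target known for keeping neural progenitors undifferentiated, was the least abundant of the 5 HES and HEY genes among the 10 in every group, and it followed another order. It had 1.10, 0.828 and 0.985 FPKM with the ANXA4 shRNA, 2.55, 2.91 and 2.45 FPKM with the B4GALNT1 shRNA, and 2.98, 4.06 and 4.36 FPKM with the NT shRNA. It had 4.99, 5.77 and 6.20 FPKM with the B4GALNT1 gRNA and 3.57, 5.18 and 4.18 FPKM with the NT gRNA. The libraries labelled ANXA4 array had 2.64, 1.51 and 1.28 FPKM, and those labelled NT array had 1.10, 0.828 and 0.887 FPKM. With the ANXA4 shRNA the mean was 0.97 ± 0.135 FPKM, 3.92 times lower than the 3.80 ± 0.724 FPKM with the NT shRNA (SD, n = 3 each), and the libraries did not overlap. In the order of means from NT array up to B4GALNT1 gRNA, the neighbours separated without overlap were the ANXA4 shRNA from the libraries labelled ANXA4 array, and the B4GALNT1 shRNA from the NT shRNA. These values rest on 23 to 208 reads per library. In 4 of the 21 libraries HES5 was under 1 FPKM, so that it passed the filter through the other 17.

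**Figure D1:**
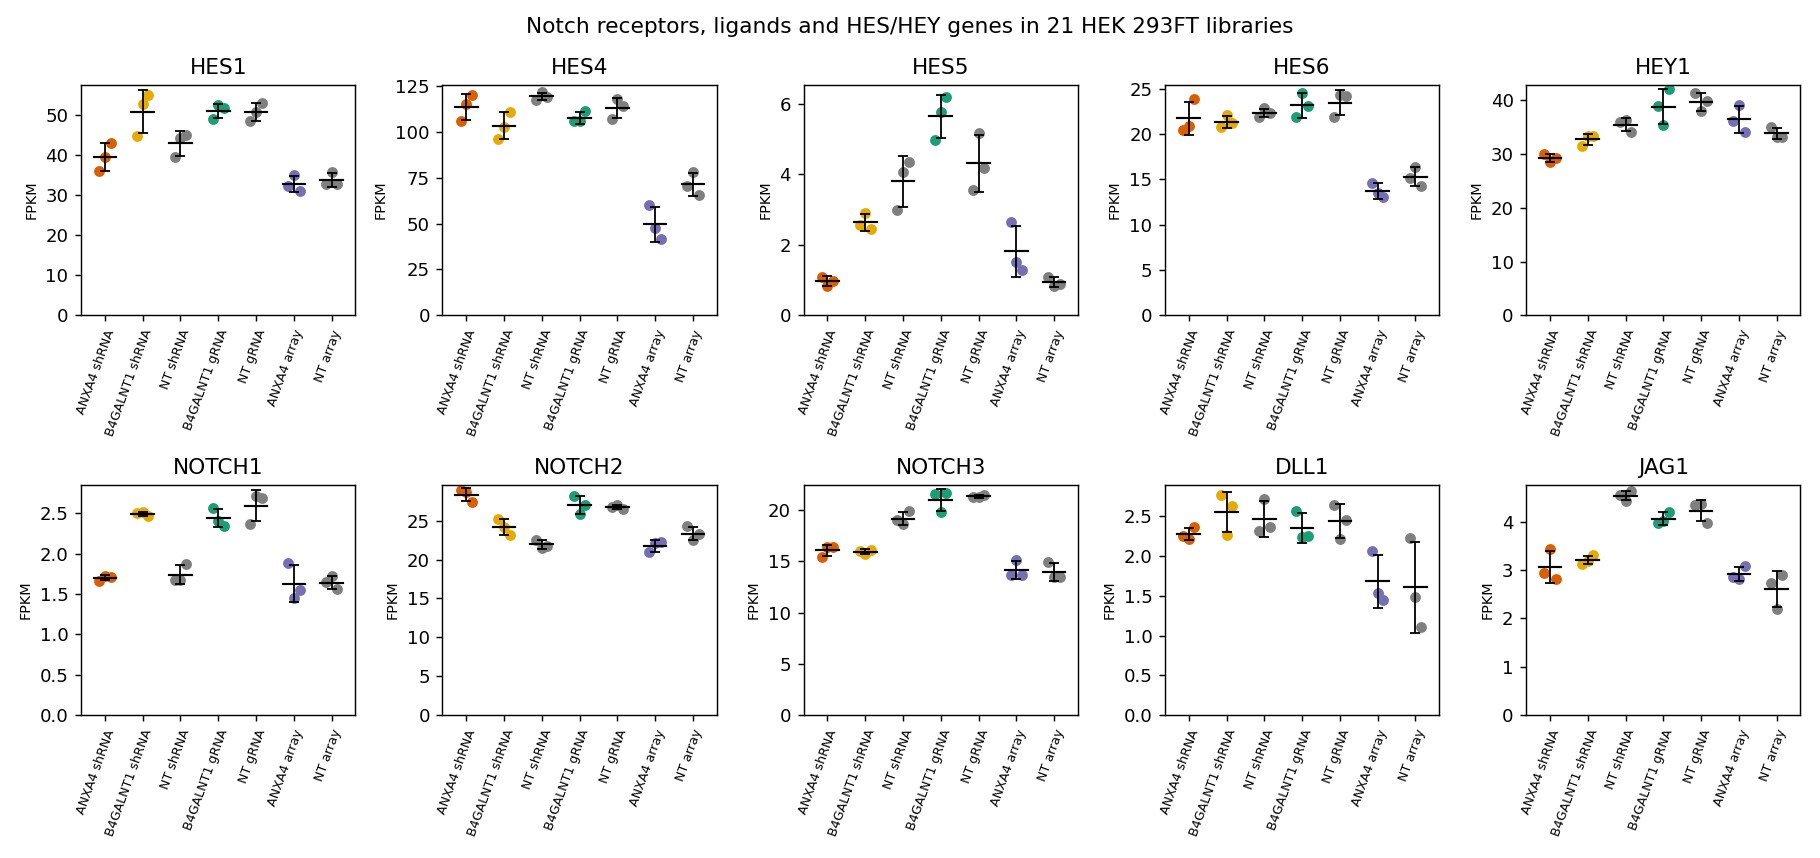
FPKM (vertical axes, from 0) of the 10 genes in each of the 21 libraries, by group; points are libraries, horizontal lines are means and bars are SD (n = 3). HES4 and HES6 are low in the 6 array libraries, HES5 is low with the ANXA4 shRNA as well (mean 0.97 FPKM), and NOTCH2 stays between 20.9 and 29.005 FPKM.

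HES4 and HES5 thus shared their low level in the arrays but not in the ANXA4 shRNA libraries. On the log2(FPKM + 1) scale, used for all differences and understating those of low genes, HES5 differed by -1.28 with the ANXA4 shRNA and HES4 by -0.07. The authors' deposited table gives -2.00 log2 for HES5 and -0.06 log2 for HES4 in that comparison. With the B4GALNT1 shRNA the differences were -0.39 for HES5 and -0.21 for HES4, against -0.49 and -0.17 log2 in the authors' deposited table. Between the libraries labelled ANXA4 array and NT array, HES5 differed by 0.51 and HES4 by -0.53. The authors' deposited table has the opposite signs there, -0.95 and 0.51 log2. Over the 7 group means, the span from lowest to highest was 1.78 log2 for HES5 and 1.27 log2 for HES4. The other 8 genes spanned 0.37 to 0.73 log2, and the median over all genes tested was 0.52 log2.

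The genes whose pattern over the 7 group means was most like that of HES4 were TMEM160, FOXD1 and FAM173A. Likeness was the mean absolute difference between centred group means of log2(FPKM + 1), and it was 0.06 log2 for TMEM160 and 0.09 log2 for FOXD1 and for FAM173A. Those most like HES5 were OPRL1 at 0.22 log2, AHNAK at 0.24 log2 and AGRN at 0.24 log2. HES5 spanned more between groups and had fewer reads than HES4, so its distances are not set against those of HES4. OPRL1, the nociceptin receptor, averaged 1.34 FPKM with the ANXA4 shRNA and 3.08 FPKM with the NT shRNA. TMEM160 averaged 29.8 FPKM in the libraries labelled ANXA4 array, 41.4 FPKM in those labelled NT array and 66.45 FPKM with the NT gRNA.

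HES4 (NM_021170) lies on hg19 chr1:934342-935552 and HES5 (NM_001010926) on hg19 chr1:2460184-2461684, both on the minus strand, and no other annotation in the table overlaps either. The nearest genes tested on each side of HES4 were KLHL17 and ISG15. ISG15, 13295 bases away, encodes an interferon-stimulated ubiquitin-like protein. ISG15 averaged 10.5 FPKM with the ANXA4 shRNA and 9.40 FPKM with the NT shRNA, 7.54 FPKM in the libraries labelled ANXA4 array and 4.69 FPKM in those labelled NT array, and 7.10 FPKM with the NT gRNA. KLHL17 averaged 5.99 FPKM in the libraries labelled ANXA4 array and 5.89 FPKM in those labelled NT array, against 9.26 FPKM with the NT gRNA. Beside HES5, PANK4 averaged 17.1 FPKM with the ANXA4 shRNA and 18.1 FPKM with the NT shRNA, and FAM213B averaged 8.10 FPKM with the ANXA4 shRNA and 13.5 FPKM with the NT shRNA.

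With the ANXA4 shRNA, NOTCH2 rose while NOTCH3, JAG1 and HEY1 fell, and NOTCH1, DLL1, HES1 and HES6 were not called. That is 4 of 8 genes called by limma, where 51.8% of all genes tested were called, so the count is close to the background. The 1 gene called higher and 3 called lower compare with 25.6% and 26.3% of all genes. Libraries did not overlap for 4 of the 8, and for 60.9% of all genes. Their median difference was -0.10 log2 and that of all genes -0.01 log2. In bulk RNA, fewer cells of a type and less RNA per cell cannot be told apart.

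JAG1, a ligand of the Jagged family, had 2.95, 3.43 and 2.81 FPKM with the ANXA4 shRNA, against 4.56, 4.44 and 4.64 FPKM with the NT shRNA. Every ANXA4 shRNA library lay below every NT shRNA library (-0.45 log2, SE 0.072, limma adjusted p = 3.12e-05). NOTCH2 had 29.005, 28.7 and 27.4 FPKM with the ANXA4 shRNA, against 22.5, 21.5 and 21.8 FPKM with the NT shRNA (0.36 log2, SE 0.042, limma adjusted p = 7.4e-07). These groups did not overlap. NOTCH2 shares its first exons with the near-identical NOTCH2NL, which had 1.84 to 3.02 FPKM, so that some reads cannot be assigned with certainty. NOTCH3 fell to 16.1 ± 0.537 FPKM with the ANXA4 shRNA, against 19.2 ± 0.62 FPKM with the NT shRNA (SD, n = 3 each; -0.24 log2, limma adjusted p = 0.000335). HEY1, a HES-related repressor, fell to 29.3 ± 0.778 FPKM, against 35.52 ± 1.23 FPKM with the NT shRNA (SD, n = 3 each; -0.27 log2, limma adjusted p = 0.000418). HES1 was at 39.6 ± 3.48 FPKM with the ANXA4 shRNA and 42.9 ± 3.06 FPKM with the NT shRNA, a difference of -0.12 log2 that was not called (limma adjusted p = 0.2) and whose libraries overlapped.

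With the B4GALNT1 shRNA, HES1, NOTCH1 and NOTCH2 rose, NOTCH3 and JAG1 fell, and HES6, HEY1 and DLL1 were not called. These are 5 of 8 genes called by limma, where 44.4% of all genes tested were called. The 3 called higher and 2 called lower compare with 18.4% and 26.0% of all genes. Libraries did not overlap for 5 of the 8, HEY1 in place of HES1, and for 55.5% of all genes. Over all genes 2523 were higher and 3554 lower, and 3162 higher and 2775 lower once each library was centred on its median. The 5 directions were the same under that centring. The comparison uses the same 3 NT shRNA libraries as the ANXA4 shRNA comparison, so the 2 sets of values are not independent.

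NOTCH1 had 2.50, 2.51 and 2.47 FPKM with the B4GALNT1 shRNA, against 1.68, 1.67 and 1.87 FPKM with the NT shRNA. The groups did not overlap (0.35 log2, SE 0.069, limma adjusted p = 0.00038), and with the ANXA4 shRNA NOTCH1 had 1.67, 1.72 and 1.72 FPKM, overlapping the NT shRNA libraries. JAG1 had 3.13, 3.19 and 3.31 FPKM with the B4GALNT1 shRNA, all below its 4.44 to 4.64 FPKM with the NT shRNA (-0.40 log2, SE 0.072, limma adjusted p = 0.000165). NOTCH3 averaged 16.0 ± 0.21 FPKM with the B4GALNT1 shRNA and 19.2 ± 0.62 FPKM with the NT shRNA (SD, n = 3 each; -0.25 log2, limma adjusted p = 0.000307).

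The folds of HES1 and NOTCH2 kept their direction with each library left out, although some calls were lost. HES1, the HES gene known to oscillate through its own repression, had 44.8, 52.7 and 55.1 FPKM with the B4GALNT1 shRNA, against 39.4, 44.4 and 45.0 FPKM with the NT shRNA. The groups overlapped (0.24 log2, SE 0.074, limma adjusted p = 0.0135). Without NT shRNA replicate 1, B4GALNT1 shRNA replicate 2 or B4GALNT1 shRNA replicate 3, the limma adjusted p for HES1 was 0.0836, 0.0561 and 0.083 in that order. Its change was 0.18 to 0.32 log2 over all 6 libraries left out in turn. NOTCH2 averaged 24.2 ± 1.03 FPKM with the B4GALNT1 shRNA and 21.9 ± 0.523 FPKM with the NT shRNA (SD, n = 3 each; 0.13 log2, limma adjusted p = 0.014). Without NT shRNA replicate 2 or B4GALNT1 shRNA replicate 1, the limma adjusted p for NOTCH2 was 0.054 and 0.078, and its change was 0.10 to 0.16 log2 over all 6. With a library left out, 5309 to 5457 of all genes were called, against 6077.

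With the B4GALNT1 gRNA, none of the 8 genes was called by limma, and 0 had an unadjusted p under 0.05, where 3.82% of all genes did. Of all genes, 0.00731% were called, which is 1 gene, B4GALNT1 itself. A linear model with precision weights on recovered reads (voom) also called 0 of the 8, and so does the authors' deposited table. The differences ran from -0.06 log2 for NOTCH1 (SE 0.069) to 0.02 log2 for NOTCH2 (SE 0.042). HES1 had 49.2, 52.4 and 51.8 FPKM with the B4GALNT1 gRNA and 48.5, 50.8 and 53.0 FPKM with the NT gRNA. JAG1 had 3.97, 4.02 and 4.22 FPKM with the B4GALNT1 gRNA and 4.36, 4.36 and 3.98 FPKM with the NT gRNA. Groups overlapped for all 8 genes, and failed to overlap for 11.8% of all genes.

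Between the libraries labelled ANXA4 array and NT array, limma called 0 of the 8 genes, voom called 0, and 2 genes had an unadjusted p under 0.05, where 10.8% of all genes did. Of all genes, 0.285% were called, 0.146% higher and 0.139% lower. Libraries did not overlap for 1 of the 8, NOTCH2, and for 10.3% of all genes. The 2 genes were HES6, with 13.7 ± 0.837 FPKM in the libraries labelled ANXA4 array and 15.3 ± 1.06 FPKM in those labelled NT array (-0.15 log2, limma adjusted p = 0.392), and NOTCH2 (-0.10 log2, limma adjusted p = 0.404). The authors' deposited table gives 0.17 and 0.11 log2 for them, with adjusted p = 1 for both. HES6 encodes a HES protein that counteracts HES1, as known from mouse.

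**Figure D2:**
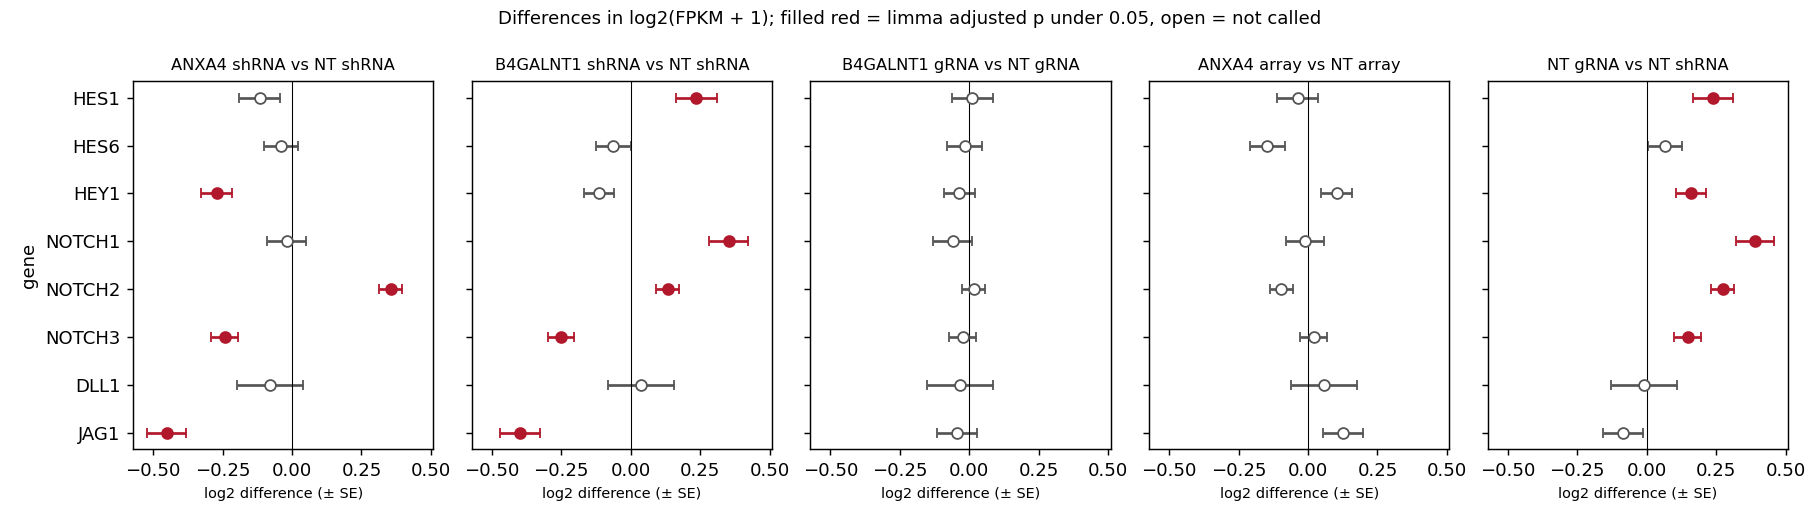
Difference in log2(FPKM + 1) of the 8 tested genes (rows) in 5 comparisons (panels), with bars for the SE; filled red points passed a limma adjusted p of 0.05. JAG1 and NOTCH3 lie left of 0 with each targeting shRNA, and no gene is called with the B4GALNT1 gRNA or between the array groups.

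The NT shRNA libraries enter 3 of these comparisons, and the control groups of the methods were therefore compared directly. Receptors and some repressors were higher with the NT gRNA than with the NT shRNA: NOTCH1, NOTCH2, NOTCH3, HES1 and HEY1 rose, 5 of 8 genes, where 48.9% of all genes tested were called by limma. All 5 were higher, as were 22.4% of all genes, and 26.5% were lower. Libraries did not overlap for 6 of the 8, JAG1 being the other, and for 60.7% of all genes. Over all genes 3066 were higher and 3621 lower, and 3698 higher and 2860 lower once each library was centred on its median, under which the 5 directions were the same. NOTCH1 had 2.37, 2.72 and 2.69 FPKM with the NT gRNA, against 1.68, 1.67 and 1.87 FPKM with the NT shRNA (0.39 log2, SE 0.069, limma adjusted p = 0.000133). NOTCH2 averaged 26.7 ± 0.258 FPKM with the NT gRNA and 21.9 ± 0.523 FPKM with the NT shRNA (SD, n = 3 each; 0.27 log2, limma adjusted p = 2.66e-05). These groups did not overlap. JAG1 and DLL1 were not called (-0.08 and -0.01 log2, limma adjusted p = 0.348 and 0.948).

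The other 3 genes kept their direction with each library left out, although some calls were lost. Leaving out a library lowered the calls over all genes to between 5766 and 5899, against 6687. HES1 averaged 50.8 ± 2.27 FPKM with the NT gRNA and 42.9 ± 3.06 FPKM with the NT shRNA (SD, n = 3 each; 0.24 log2, limma adjusted p = 0.0119). The limma adjusted p for HES1 was 0.0739 without NT shRNA replicate 1 and 0.0523 without NT gRNA replicate 3, and its change was 0.18 to 0.27 log2 over all 6 libraries left out in turn. NOTCH3 averaged 21.4 ± 0.119 FPKM with the NT gRNA and 19.2 ± 0.62 FPKM with the NT shRNA (SD, n = 3 each; 0.15 log2, limma adjusted p = 0.0167, and 0.0652 without NT shRNA replicate 2, with changes of 0.13 to 0.17 log2 over all 6). HEY1 differed by 0.16 log2 (limma adjusted p = 0.023). Without NT shRNA replicate 3, NT gRNA replicate 1 or NT gRNA replicate 3 that p for HEY1 was 0.0963, 0.0974 and 0.0542, and its change was 0.13 to 0.19 log2 over all 6.

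On hg19 the counted transcripts of the receptors lie at chr9:139388885-139440238 for NOTCH1 (NM_017617), chr1:120454176-120612317 for NOTCH2 (NM_024408) and chr19:15270444-15311792 for NOTCH3 (NM_000435), all on the minus strand. Those of the ligands lie at chr6:170591294-170599697 for DLL1 (NM_005618) and chr20:10618332-10654694 for JAG1 (NM_000214), also on the minus strand. HES1 (NM_005524) lies at chr3:193853931-193856401 on the plus strand and HES6 (NM_018645) at chr2:239146908-239148765 on the minus strand. In order of level the receptors and ligands placed the 7 groups differently. NOTCH1 had a lower run of groups, the arrays, the ANXA4 shRNA and the NT shRNA, with means of 1.63 to 1.74 FPKM. It had an upper run, both single-guide groups and the B4GALNT1 shRNA, with means of 2.44 to 2.59 FPKM. Groups next to each other overlapped within each run and not between them. JAG1 had a lower run of both array groups and both targeting shRNAs, with means of 2.61 to 3.21 FPKM, and the single-guide groups and the NT shRNA lay above it at 4.07 to 4.55 FPKM. NOTCH2 was highest with the ANXA4 shRNA, at 28.4 ± 0.867 FPKM. DLL1, a ligand of the Delta family, lay between 2.28 and 2.55 FPKM on average in the 5 groups without arrays, whose libraries overlapped with those of the neighbouring group in every case. NOTCH2 was the most abundant of the 3 receptors per length and NOTCH1 the least in every group. NOTCH4 did not exceed 0.456 FPKM and was not tested.

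The effect of the B4GALNT1 shRNA, relative to its NT shRNA, was tested against the effect of the B4GALNT1 gRNA, relative to its NT gRNA. Limma called 3 of the 8 genes, where 29.8% of all genes tested were called, 12.9% with a higher and 16.9% with a lower effect of the shRNA. Over all genes the split was 1760 to 2318, and 2231 to 1821 once each library was centred on its median. The difference of effects was 0.41 log2 for NOTCH1 (SE 0.098, limma adjusted p = 0.00339), -0.23 log2 for NOTCH3 (SE 0.068, limma adjusted p = 0.0167) and -0.35 log2 for JAG1 (SE 0.101, limma adjusted p = 0.0129). HES1 was not called (0.23 log2, limma adjusted p = 0.111). It was called with the replicate block (adjusted p = 0.0352), with voom (adjusted p = 0.04) and without B4GALNT1 shRNA replicate 1 (adjusted p = 0.0197).

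Pooled whatever their labels, the array libraries were lower than the single-guide RfxCasR libraries for most of these genes. Of the 8 tested genes, 6 had every array library below every single-guide library, where this held for 24.6% of all genes and 42.8% did not overlap in either direction. No test was made of this gap. HES1 had 31.1 to 35.7 FPKM in the 6 array libraries, against 48.5 to 53.0 FPKM in the 6 single-guide libraries. NOTCH3 had 13.4 to 15.1 FPKM in the array libraries, against 19.8 to 21.7 FPKM in the single-guide libraries. The exceptions were HEY1, with 33.3 to 39.1 FPKM in the array libraries and 35.47 to 42.1 FPKM in the single-guide libraries, and DLL1, with 1.10 to 2.23 FPKM in the array libraries and 2.22 to 2.64 FPKM in the single-guide libraries. Array libraries were also sequenced more deeply, and the libraries within an array group differed more from each other over all genes (0.215 to 0.228 log2 as the mean root mean square difference) than those of other groups (0.176 to 0.193 log2).

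GC content moved with this gap and is given beside it. Over 12973 genes with a matched GENCODE 29 transcript, the median difference of arrays minus single guides was 0.12 log2 in the GC decile with the lowest GC content and -0.30 log2 in the decile with the highest. Of the 10 genes, 5 lay in the highest decile: HES4 at 74.0% GC, HES6 at 66.6%, HES5 at 66.2%, NOTCH3 at 63.1% and NOTCH1 at 62.9%. Their differences were -0.89, -0.65, -1.36, -0.56 and -0.42 log2. HES6, NOTCH3 and NOTCH1 each lay below the median of that decile, as did HES4 and HES5, which were selected on these FPKM values. HES1, JAG1, NOTCH2 and HEY1, at 47.4% to 49.9% GC, lay in the fifth decile, where the median was -0.03 log2, and differed by -0.60, -0.46, -0.24 and -0.16 log2. The transcripts most like HES4 had 72.2% GC for TMEM160, 72.2% for FAM173A and 66.0% for FOXD1. Those most like HES5 had 67.6% GC for AGRN, 60.7% for OPRL1 and 49.3% for AHNAK. AGRN, OPRL1 and AHNAK differed by -1.07, -0.95 and -1.02 log2, although AHNAK lay in the fifth decile. Both sets were picked for patterns that include the array groups, so their values are given for description only. The part of GC content in the gap was not tested.

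**Figure D3:**
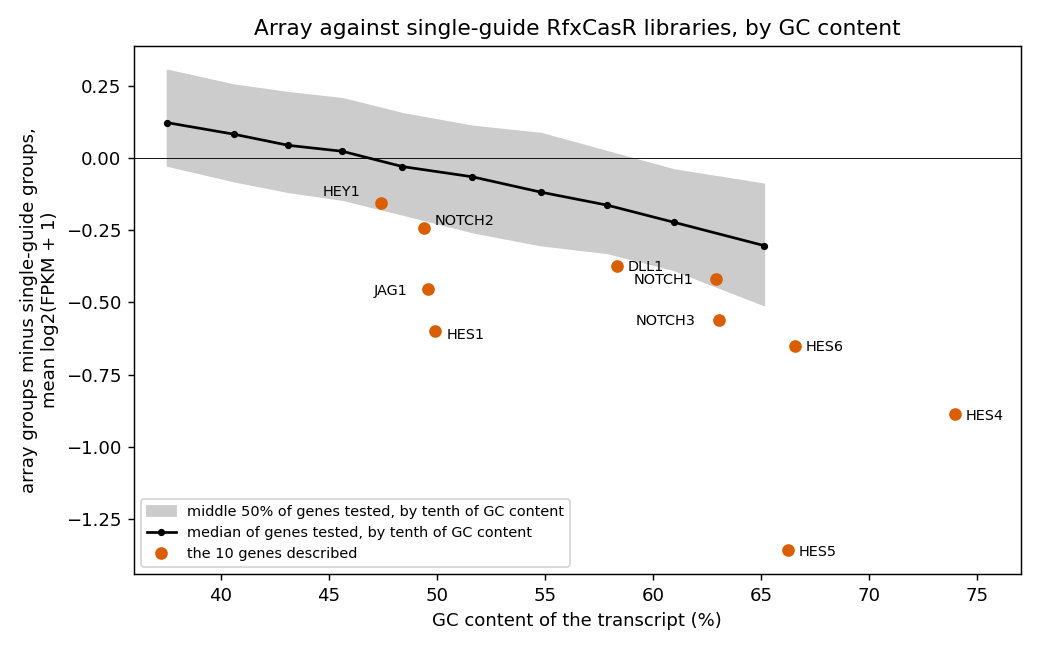
Mean log2(FPKM + 1) of the array groups minus that of the single-guide groups (vertical axis) against GC content of the transcript in percent (horizontal axis); the line and band are the median and middle 50% of genes tested in each decile of GC content, plotted at the median GC of the decile. Each of the 8 tested genes lies below the median of its own decile. HES4 and HES5, selected on their FPKM in these libraries, are shown for description only.

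Other genes of the pathway came from a list of 63 written from textbook knowledge, of which 53 passed the filter. With the ANXA4 shRNA 16 rose and 14 fell, or 56.6% against 51.8% of all genes. With the B4GALNT1 shRNA 11 rose and 15 fell, or 49.1% against 44.4%. With the NT gRNA against the NT shRNA 15 rose and 12 fell, or 50.9% against 48.9%. In these 3 comparisons the counts were close to the share of all genes. With the B4GALNT1 gRNA limma called 0 and voom called 0. An unadjusted p under 0.05 was found for 3 of the 53, and for 3.82% of all genes. Between the array groups limma called 0, while voom called 2 of the 53 and 114 of all 13679 genes. An unadjusted p under 0.05 was found there for 10 of the 53, and for 10.8% of all genes.

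Among nuclear factors, MAML3, a Mastermind coactivator, fell with the ANXA4 shRNA (-0.81 log2, limma adjusted p = 8.16e-09). It averaged 1.152 ± 0.0897 FPKM there and 2.78 ± 0.132 FPKM with the NT shRNA (SD, n = 3 each), the highest mean of all groups. MAML3 was also called lower than the NT shRNA with the B4GALNT1 shRNA (1.78 FPKM, limma adjusted p = 2.75e-05) and the NT gRNA (2.16 FPKM, limma adjusted p = 0.00368). SNW1, a splicing and transcription cofactor that binds the Notch complex, fell to 33.6 ± 1.40 FPKM with the B4GALNT1 shRNA, against 56.0 ± 0.41 FPKM with the NT shRNA (SD, n = 3 each; limma adjusted p = 1.66e-10). Its mean was 54.1 FPKM with the ANXA4 shRNA and at least 57.5 FPKM in every RfxCasR group. CTBP1, a corepressor, fell to 48.0 ± 1.76 FPKM with the B4GALNT1 shRNA, against 83.7 ± 2.12 FPKM with the NT shRNA (SD, n = 3 each; -0.79 log2, limma adjusted p = 2e-12). It averaged 80.3 FPKM with the ANXA4 shRNA, 88.0 FPKM with the NT gRNA and 85.8 FPKM with the B4GALNT1 gRNA. CTBP1 was lower in the arrays, at 59.9 FPKM in the libraries labelled ANXA4 array and 60.8 FPKM in those labelled NT array. TLE4, a Groucho corepressor that HES proteins recruit, averaged 26.8 FPKM with the ANXA4 shRNA, 25.1 FPKM with the B4GALNT1 shRNA and 33.0 FPKM with the NT shRNA, and 26.4 to 27.4 FPKM in the 4 RfxCasR groups. Both shRNA falls of TLE4 passed the test (-0.29 and -0.38 log2, limma adjusted p = 2.94e-07 and 1.19e-08).

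NRARP, a Notch target that feeds back on the Notch complex, rose with each targeting shRNA. It averaged 14.03 ± 0.498 FPKM with the ANXA4 shRNA, 17.3 ± 0.32 FPKM with the B4GALNT1 shRNA and 11.1 ± 0.281 FPKM with the NT shRNA (SD, n = 3 each). The changes were 0.31 and 0.60 log2 (limma adjusted p = 6.82e-06 and 2.14e-09), and NRARP was at 17.2 ± 0.649 FPKM with the NT gRNA. ITCH, a ubiquitin ligase of Notch, rose by 0.50 log2 with the ANXA4 shRNA and 0.55 log2 with the B4GALNT1 shRNA (limma adjusted p = 6.57e-07 and 3.08e-07). Its NT shRNA mean, 9.08 FPKM, was the lowest of all groups, and the RfxCasR groups averaged 11.05 to 11.8 FPKM. FBXW7, which marks the Notch intracellular domain for destruction, was lower with the NT gRNA than with the NT shRNA (limma adjusted p = 4.38e-07). The means were 7.48 ± 0.867 and 12.1 ± 0.12 FPKM (SD, n = 3 each), and that of the NT shRNA was the highest of all groups. FBXW7 was also called lower with the ANXA4 shRNA (-0.49 log2, limma adjusted p = 6.67e-06) and the B4GALNT1 shRNA (-0.26 log2, limma adjusted p = 0.0041).

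Of the enzymes that act on receptors, RFNG, a fringe glycosyltransferase, fell with the ANXA4 shRNA (-0.72 log2, limma adjusted p = 5.22e-09). It averaged 13.9 ± 0.813 FPKM there and 23.6 ± 1.18 FPKM with the NT shRNA (SD, n = 3 each). RFNG was as low in the arrays, at 14.5 FPKM in the libraries labelled ANXA4 array and 13.0 FPKM in those labelled NT array. With the B4GALNT1 shRNA it averaged 20.9 FPKM, also called lower than the NT shRNA (limma adjusted p = 0.0271), and with the NT gRNA 20.1 FPKM. ADAM17, a protease that can cleave Notch receptors, rose to 13.5 ± 0.453 FPKM with the B4GALNT1 shRNA, against 9.69 ± 0.572 FPKM with the NT shRNA (SD, n = 3 each; limma adjusted p = 6.69e-05). It averaged 13.1 FPKM with the NT gRNA. PSEN2, a presenilin of gamma-secretase, was higher with the NT gRNA than with the NT shRNA (0.60 log2, limma adjusted p = 4.24e-06), and MIB2, a ubiquitin ligase of Notch ligands, was lower (-0.47 log2, limma adjusted p = 3.3e-06). Among all groups the NT shRNA had the lowest mean of PSEN2, 6.13 FPKM, and the highest of MIB2, 16.4 FPKM. CCND1, cyclin D1, rose to 13.0 ± 0.199 FPKM with the ANXA4 shRNA, against 7.005 ± 0.71 FPKM with the NT shRNA (SD, n = 3 each; limma adjusted p = 1.46e-07). CDKN1A, the cell cycle inhibitor p21, was higher with the NT gRNA than with the NT shRNA (0.66 log2, limma adjusted p = 8.04e-06).

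Of the other HES and HEY genes, HES2, HES3 and HES7 did not pass the filter. HEYL and HEY2 did, and are named after their values were seen. HEYL averaged 4.44 ± 0.39 FPKM with the ANXA4 shRNA, 3.98 ± 0.212 FPKM with the B4GALNT1 shRNA and 3.19 ± 0.157 FPKM with the NT shRNA (SD, n = 3 each), and rose in each comparison (0.38 and 0.25 log2, limma adjusted p = 0.000314 and 0.0103). The NT shRNA mean of HEYL was the lowest of all groups, and the RfxCasR groups averaged 4.60 to 5.04 FPKM. With the NT gRNA against the NT shRNA, HEYL was higher by 0.52 log2 (limma adjusted p = 1.47e-05). HEY2 averaged 4.03 ± 0.192 FPKM with the ANXA4 shRNA, 3.29 ± 0.122 FPKM with the B4GALNT1 shRNA and 5.08 ± 0.369 FPKM with the NT shRNA (SD, n = 3 each), and fell in each (-0.27 and -0.50 log2, limma adjusted p = 0.0142 and 0.000124). The fall with the ANXA4 shRNA had an adjusted p of 0.0677 without NT shRNA replicate 3 and 0.056 without ANXA4 shRNA replicate 2.

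**Figure D4:**
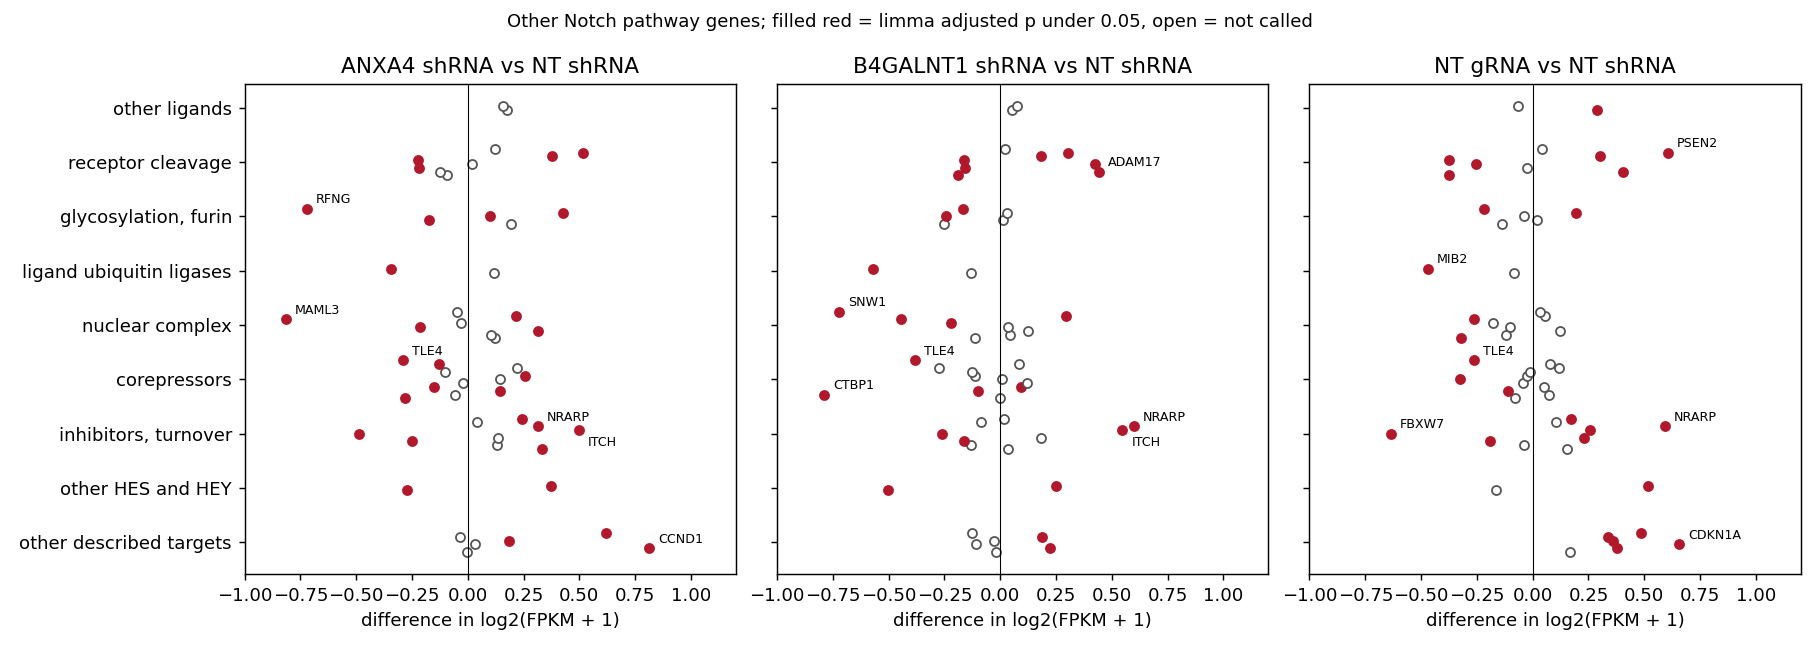
Difference in log2(FPKM + 1) (horizontal axes) of the 53 other pathway genes that passed the filter, by role (rows), in 3 comparisons that share the NT shRNA libraries; filled red points passed a limma adjusted p of 0.05, and the named genes are those with the smallest p. With the ANXA4 shRNA 16 genes are higher and 14 lower, and the receptor cleavage genes have calls in both directions in each panel.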

How the data were processed

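The authors deposited FPKM values. Per the file headers, HOMER made them on hg19 by counting exon reads on 1 strand and keeping 1 transcript per gene. The submitters' processing notes also name R 3.3.2, DESeq2 1.14.1, STAR and FastQC. The authors also deposited 4 comparison tables, whose log2 fold changes and adjusted p-values are quoted only as the authors' values. MIR4673, MIR6795 and MIR6870 overlap NOTCH1, NOTCH3 and JAG1 on the same strand and share their reads.

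Multiplied by exon length and scaled, FPKM gave whole reads (within 0.1) for 100% of the values low enough to resolve, which set the depth. limma 3.58.1 (R 4.3.3) fitted log2(FPKM + 1) of 21 libraries in 7 groups, with a variance trend, and Benjamini-Hochberg adjustment ran over 13679 genes at 0.05. This was tested on simulated data. The design calls the replicates biological, with no word on separate cultures, so p-values cover only the spread among these libraries, which may be technical. No replicate term was used.

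The genes, lists and tests were chosen with earlier results of these data known. Named genes are the 10, both targets, fixed markers (some are not reported here), up to 3 called list genes per direction and comparison with the smallest p, and for HES4 and HES5 the 3 most alike genes and nearest neighbours. Alternatives were a pseudocount of 0.1, other filters, scalings, models and thresholds, voom on recovered reads and leaving out libraries. GC content was added after seeing the data. Promoters came from RefSeq for 8 of the 10 genes, HEY1 and DLL1 being left out.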

Additional observations from a re-analysis of the deposited data

Results flagged for a closer look

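The effects of the B4GALNT1 shRNA and the B4GALNT1 gRNA, each relative to its own non-targeting control, differed for 3 of the 8 tested genes by a test of the difference itself. By the same test 29.8% of all genes were called, so the count is close to the background. NOTCH1 moved 0.41 log2 more with the shRNA than with the gRNA (limma adjusted p = 0.00339), and was higher than the NT mean in 3 of 3 shRNA libraries. Among these groups the NT shRNA stood apart for NOTCH1, at 1.74 FPKM. Its means were 2.50 FPKM with the B4GALNT1 shRNA, 2.44 FPKM with the B4GALNT1 gRNA and 2.59 FPKM with the NT gRNA. NOTCH3 differed by -0.23 log2 (limma adjusted p = 0.0167) and JAG1 by -0.35 log2 (limma adjusted p = 0.0129). Each was lower than the NT mean in 3 of 3 shRNA libraries, and each had its lowest mean of these groups with the B4GALNT1 shRNA. HES5 was selected on its FPKM in these same libraries and is described only. It differed by -0.39 log2 with the B4GALNT1 shRNA and by 0.33 log2 with the B4GALNT1 gRNA, a difference of effects of -0.72 log2 that was not tested.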

How the results depend on the processing

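Of the tested genes, no called direction was reversed by any alternative run on the FPKM or the recovered reads. Against the authors' deposited table the sign of ANXA4 between the array groups reversed, to -1.21 log2. B4GALNT1 and all 10 genes also had the opposite sign there. Every direction between the array groups therefore rests on the labels of the FPKM columns. Without arrays in the model, with no filter and with the replicate block, genes called with the B4GALNT1 gRNA were 3, 2 and 2, against 1. Between the array groups 39 genes were called, but 3 with only those groups in the model, 7 at an adjusted p of 0.01, 114 with voom, and 23 to 55 leaving out each library in turn, with 23 without ANXA4 array replicate 2; the called pathway genes were 1 after median-centring and 2 with voom, against 0. At an adjusted p of 0.01 the tested genes called were 3 with the B4GALNT1 shRNA (against 5), 2 between the NT gRNA and the NT shRNA (against 5) and 1 for the difference of effects (against 3), which also had 2608 genes and 11 pathway genes (against 4078 and 19). At that threshold the counts over all genes stayed within 1.5 times of 6077 with the B4GALNT1 shRNA and of 6687 between the NT gRNA and the NT shRNA. For the difference of effects voom called 5 of the 8, and over all genes 2042 with a higher and 1910 with a lower effect of the shRNA. Leaving out each library in turn gave 3 to 5 tested genes between the NT gRNA and the NT shRNA, with 3 without NT gRNA replicate 3. The cause of these shifts was not tested. HEY1 with the B4GALNT1 shRNA was called with only the groups compared in the model (adjusted p = 0.0445) and NOTCH2 for the difference of effects after median-centring (adjusted p = 0.0275). HES5 with the ANXA4 shRNA was at -1.86 log2 with a pseudocount of 0.1 and -1.92 log2 with voom. Same-numbered replicates did not deviate together (correlations -0.15 to 0.07 over 13679 genes), although every B4GALNT1 gRNA sample matched its own number in the NT gRNA group best; beyond the 2 genes above, the block moved no count by over 1.5 times, and it called HES1 for the difference of effects. HES5 is limited by 23 to 208 reads per library.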
